A study of Mus musculus with 12 samples.

Results

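MHC class I molecules are pairs of a heavy chain and beta-2 microglobulin that hold peptides at the cell surface, and 10 of their genes were read here in cells from mouse tumours. The members were taken by name from the 55401 genes of the deposited table: the heavy chain genes H2-K1, H2-D1, H2-Q4, H2-Q6, H2-Q7, H2-T22, H2-T23, H2-T24 and H2-M3, and B2m for beta-2 microglobulin. Each was found once, by its Ensembl identifier with the version removed. B16-OVA tumours, from a mouse melanoma line that carries ovalbumin, had grown for 10 days in WT mice of unstated strain and age. On day 17, live cells positive for CD45, a marker of blood cells, and for CD11c, an integrin of dendritic and other myeloid cells, were sorted for RNA sequencing. The 4 groups of 3 libraries were untreated, fusion protein (a first dose of 20 mcg, given on day 10, and a second of 10 mcg, on day 14), 20 Gy of radiation on day 10, and both treatments, called combined. The labels do not say what the fusion protein is made of. They also leave unsaid whether each library had its own mouse, so the spread behind every p-value may be partly or wholly technical.

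Class I molecules display peptides from proteins made inside the cell. Proteasomes cut the peptides, the TAP transporter moves them into the endoplasmic reticulum, and chaperones load them onto the heavy chain. H2-K1 and H2-D1 encode the classical, highly variable molecules that CD8 T cells read. The others encode nonclassical molecules, which vary less and often present to special receptors. Both interferon types are known inducers of class I genes, and dendritic cells use class I also to show peptides from material they have taken up.

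The 9 heavy chain genes lie on chromosome 17 and B2m on chromosome 2 (mouse build GRCm38, GENCODE vM21), and all 10 are protein coding. Promoters for 9 of the 10, without H2-T24, were matched in RefSeq for GRCm38.p6, and the 250 bases before each start were searched on both strands. The core of the interferon-stimulated response element, spelled GAAA, NN and GAAA, was found in H2-T22, H2-T23 and B2m, and in 2.98% of 32851 mouse promoters. The core of the class I interferon consensus sequence, GAAGTGAAA, was in the 6 members H2-K1, H2-D1, H2-Q4, H2-Q6, H2-Q7 and H2-M3, against 0.4% of all promoters. This second motif was chosen after the promoters had been read. Each of the 9 members searched thus held 1 of these motifs, and none held both. The sites are shown 5′ to 3′ on the gene's own strand, with the match, or its reverse complement, in capitals, because the members whose values are given below differ in which motif they carry.
H2-K1: atctccacagTTTCACTTCtgcacctaacc
H2-D1: atctcctcagTTTCACTTCtgcacctaacc
H2-Q4: atctccccagTTTCACTTCtgctcctaact
H2-Q6: atctccccagTTTCACTTCtgctcctaacc
H2-Q7: atctccccagTTTCACTTCtgctcctaacc
H2-M3: tcctctgaggTTTCACTTCtctgtaactct
H2-T22: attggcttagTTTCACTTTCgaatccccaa
H2-T23: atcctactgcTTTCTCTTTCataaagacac
B2m: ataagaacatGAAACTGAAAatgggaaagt

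These sites lie at chr17:34000418-34000447 on the minus strand for H2-K1, chr17:35262934-35262963 on the plus strand for H2-D1, and chr17:35379454-35379483 on the plus strand for H2-Q4. Those of H2-Q6 and H2-Q7 are at chr17:35424688-35424717 and chr17:35439032-35439061, both on the plus strand. For H2-M3 the site is at chr17:37270123-37270152 on the plus strand, and for B2m it is at chr2:122147538-122147567 on the plus strand. The minus strand carries those of H2-T22, at chr17:36042914-36042943, and H2-T23, at chr17:36032806-36032835. The match begins 90 bases before the RefSeq start in H2-K1 and 191 bases before it in H2-T22, with the other 7 between. In H2-D1 and H2-T23 the site falls inside the span of the longer GENCODE gene model. A match in letters is a description and not a shown binding site.

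To set the promoter of a classical gene beside that of H2-T22, the one member called in each comparison that called any, the stretch from 200 to 41 bases before the start is given for H2-K1 (chr17:34000388-34000547, minus strand) and H2-T22 (chr17:36042783-36042942, minus strand), with the same motifs in capitals.
H2-K1: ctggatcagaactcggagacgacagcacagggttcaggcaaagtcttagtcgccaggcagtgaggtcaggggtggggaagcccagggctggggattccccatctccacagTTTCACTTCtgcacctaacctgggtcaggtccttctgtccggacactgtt
H2-T22: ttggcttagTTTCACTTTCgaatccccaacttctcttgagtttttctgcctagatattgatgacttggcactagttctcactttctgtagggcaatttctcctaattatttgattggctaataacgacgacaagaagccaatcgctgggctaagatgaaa
The NF-kB motif GGGGATTCC, present in H2-K1, was also found in H2-D1, H2-Q6 and H2-Q7 and in 0.21% of all promoters. H2-T22 held TGATGAC, the X2 box bound by the class I enhanceosome, as did H2-D1, H2-Q4, H2-Q6, H2-Q7 and H2-M3, against 2.69% of all promoters. CCAAT, the Y box core, was in 9 of 9 members and in 33.85% of promoters.

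The libraries held 14462032 to 23985496 reads in genes, and each of the 10 genes was far above the filter used for testing (10 normalized counts or more in 3 libraries or more). Normalized counts are the authors' DESeq2 values, in which a library's size factor has been divided out. Itgax, the gene of CD11c, stood at 2225.9 to 9496.9 in the 12 libraries, and marker genes of B, T and NK cells were also read in them. The number-3 libraries of all 4 groups stood apart: Tyrp1, a melanocyte enzyme, was at 202.8 to 4718.1 there and at most 38.5 elsewhere, and the mean log2 level of 5 B cell markers was 4.5 to 8.9 there and 9.73 to 11.62 elsewhere. Of 1754 odorant, pheromone and trace amine receptor genes, which blood cells are not known for expressing, 39.68% to 78.96% had a read in 2 libraries of 20 Gy and 2 of combined, and 4.79% to 25.48% in the rest. Mitochondrially encoded genes held 6.95% to 10.48% of reads in the libraries without radiation and 10.68% to 18.57% in those with it. The part of this in the class I values was not tested. In bulk samples like these, fewer cells of a type and less RNA per cell cannot be told apart.

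Per kilobase of exon, B2m was the most abundant member in untreated cells, at 19574.5 to 36184.6 normalized counts. H2-D1 (9102.6 to 14941.9) and H2-K1 (7029.4 to 11365.4) followed. Their ranges overlapped, although H2-D1 was the higher of the pair in each untreated library. H2-Q6, one of the genes for the lipid-anchored Qa-2 antigen, came next at 2860.8 to 5096.6 per kilobase, clear of its neighbours. Below it the ranges of H2-Q4 (1587.1 to 2395.8), H2-Q7 (1056.5 to 1754.2) and H2-T23 (1009.1 to 1705.9) overlapped. Lowest were H2-M3 at 479.1 to 727, H2-T22 at 357.8 to 696.3 and H2-T24 at 181.1 to 375.8 per kilobase, where H2-T22 overlapped each of the other two and these did not overlap each other. Some Q genes share sequence: 11.98% of the 100-base windows of H2-Q7 transcripts and 10.78% of those of H2-Q6 recur in other genes. Windows of H2-Q7 recur in H2-Q10 (5.56%), H2-Q5 (3.5%) and H2-Q6 (3.42%), and those of H2-Q6 mostly in H2-Q7 (8.36%). Reads could be split among such genes, so the single levels of H2-Q6 and H2-Q7 are uncertain. The share of windows that recur is 2.16% for H2-Q4, 3.59% for H2-D1 and 3.15% for H2-T23. For H2-T22 this share is 8.86%, most of it with H2-T10.

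**Figure D1:**
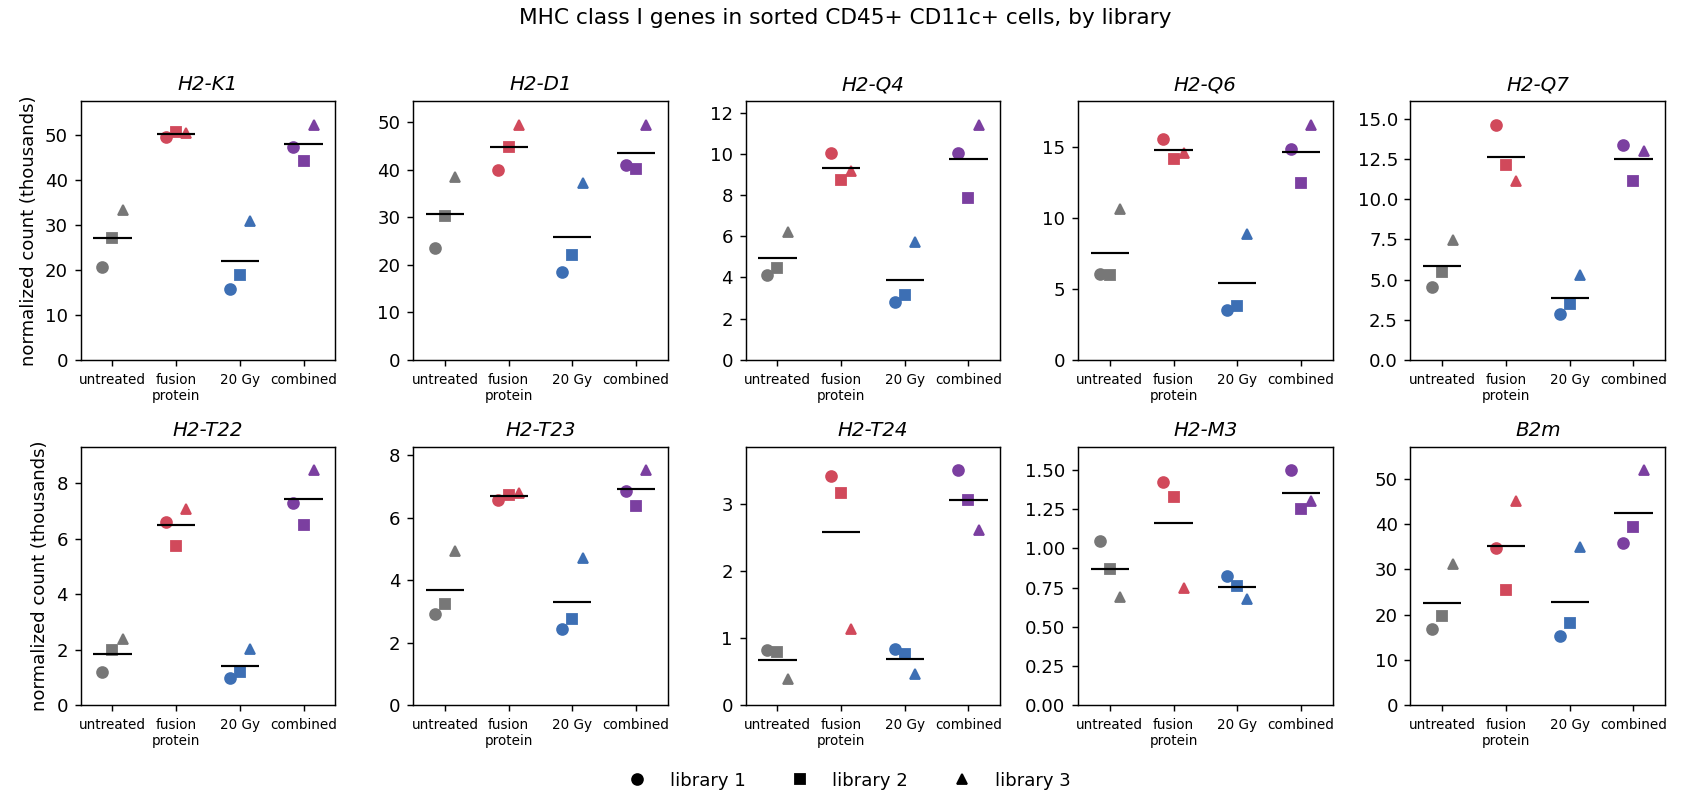
Normalized count (linear axis from 0) of each of the 10 class I genes by group, with one symbol per library (circle, square and triangle for libraries 1, 2 and 3) and a line at the group mean. In 8 of the 10 panels the fusion protein points lie above all untreated points, with H2-M3 and B2m the exceptions, and in all 10 the combined points lie above those of 20 Gy.

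The first comparison, fusion protein against untreated, asked what the protein did without radiation. Class I genes stood higher with it: 8 of 10 had all 3 treated libraries above all 3 untreated ones, against 5.94% of the 18274 genes tested, and the median log2 difference was 0.93 against −0.01 over all tested genes. By limma with Benjamini-Hochberg adjustment over all tested genes only H2-T22 rose past the adjusted p threshold of 0.05, that is 1 of 10 beside 0.744% of all genes. With the replicate number as a block, which pairs libraries of the same number, 7 of 10 were called beside 3.29% of all genes.

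H2-T22, a nonclassical molecule seen by a subset of gamma delta T cells, was at 1221.4, 1984.5 and 2377.3 normalized counts in the untreated libraries and at 6606.2, 5745.8 and 7074.5 with the fusion protein. The lowest treated library was well above the highest untreated one. Its log2 fold change was 1.85 ± 0.29 (SE, n = 3 against 3), a 3.6-fold difference, with limma's adjusted p = 0.0148. This call was lost when untreated library 2 (adjusted p = 0.0536), fusion protein library 1 (0.0714) or fusion protein library 3 (0.0651) was left out, and when only these 6 libraries were fitted (0.0885), with limma in each case.

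H2-T24, which lies near H2-T22 on the chromosome with H2-T23 between them, was at 820, 801.3 and 395.2 untreated. With the fusion protein it was at 3412, 3162.6 and 1140.4. The number-3 library was the lowest in both groups, and the groups did not overlap. The log2 difference of 1.85 ± 0.42 missed the threshold in limma (adjusted p = 0.0902) and passed it with the block (0.000364). H2-T23 encodes Qa-1, the ligand of the inhibitory CD94/NKG2A receptor of NK cells. Its counts were 2915.3, 3230.1 and 4928.3 untreated and 6570.2, 6706.2 and 6788.8 treated, a log2 difference of 0.9 ± 0.25 (limma adjusted p = 0.219, with the block 0.0155). The 3 treated libraries of H2-T23 were close together, while untreated library 3 stood above the other two.

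Among the classical genes, H2-K1 was at 20652.5, 27120.4 and 33391.5 untreated and at 49545.3, 50669.2 and 50498 with the fusion protein. The log2 difference was 0.92 ± 0.26, with limma's adjusted p = 0.226 and 0.0233 with the block. H2-D1 was at 23475.6, 30230.7 and 38535.1 untreated and at 40054.8, 44779.5 and 49432.3 treated. Neither gene's groups overlapped, but the gap between them was narrow for H2-D1. Its log2 difference of 0.57 ± 0.28 (95% interval −0.05 to 1.18) passed neither fit (limma adjusted p = 0.646, with the block 0.118).

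The 3 Q genes were higher by similar amounts. H2-Q7, which also belongs to the Qa-2 genes, was at 4505.8, 5445.5 and 7481.5 untreated and at 14634.9, 12124.8 and 11134.1 with the fusion protein. Its log2 difference was 1.14 ± 0.25 (limma adjusted p = 0.0795, with the block 0.0129). H2-Q6 was at 6041, 5964.8 and 10626.4 untreated and at 15596.3, 14150.9 and 14615.9 treated. In both genes untreated library 3 was the highest of its group and still below every treated library. The log2 difference of H2-Q6 was 1.02 ± 0.34 (limma adjusted p = 0.33, with the block 0.0321). H2-Q4 was at 4120.2, 4469.5 and 6219.4 untreated and 10017.1, 8731.2 and 9166.4 treated, a log2 difference of 0.94 ± 0.27 (limma adjusted p = 0.226, with the block 0.0184). Summed over H2-Q4, H2-Q6 and H2-Q7, which removes a split of reads among these 3 but not with H2-Q10 or H2-Q5, the log2 difference was 1.04 ± 0.3 (limma adjusted p = 0.22).

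H2-M3, which presents peptides with a formylated first residue as bacteria make them, and B2m were the members whose groups overlapped. H2-M3 was at 1045.4, 866.2 and 689 untreated and at 1418.3, 1326 and 746 with the fusion protein, where treated library 3 lay inside the untreated range. B2m was at 16834.1, 19655.4 and 31118.7 untreated and at 34697.8, 25543.3 and 45039.7 treated, with treated library 2 below untreated library 3. The log2 differences of 0.39 ± 0.25 for H2-M3 and 0.65 ± 0.35 for B2m had limma adjusted p values of 0.812 and 0.709, and neither passed with the block (0.275 and 0.085).

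Combined against 20 Gy asked what the fusion protein did in irradiated tumours, and all 10 genes stood higher. Every combined library exceeded every 20 Gy library for each of them, against 8.36% of all genes, and the median log2 difference was 1.29 against −0.02 over all genes. In limma 4 of 10 rose, beside 1.03% of all genes: H2-Q4, H2-Q7, H2-T22 and H2-T24.

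In this pair H2-T22 went from 982.9, 1217.2 and 2044.3 normalized counts with 20 Gy to 7284.4, 6508.1 and 8464.7 combined, the highest fold change of the 10 genes in any of the 7 comparisons. The log2 value was 2.45 ± 0.29, or 5.47-fold, with limma's adjusted p = 0.00184. H2-Q7 rose from 2826.5, 3450.2 and 5304.4 to 13385.7, 11131.8 and 12963.3, by 1.74 ± 0.25 on the log2 scale (limma adjusted p = 0.0061). These 2 genes kept their call when any one of the 6 libraries was left out. H2-T24 rose from 845.7, 770.4 and 472.5 to 3497, 3047.6 and 2600.6, by 2.16 ± 0.42 (limma adjusted p = 0.036). H2-Q4 rose from 2812.4, 3149.1 and 5697 to 10049.6, 7842 and 11415.7, by 1.39 ± 0.27 (limma adjusted p = 0.0348). With any one of the 6 compared libraries left out H2-T24 was lost (limma adjusted p 0.0889 to 0.16), and H2-Q4 was lost in each case but that of 20 Gy library 3 (0.0546 to 0.188 where lost). Untreated library 2 and the fusion protein libraries, which enter only through the shared spread, also mattered: without untreated library 2 both were lost (H2-Q4 0.0547, H2-T24 0.0515), and H2-Q4 was lost without any one fusion protein library (limma adjusted p 0.0502 to 0.0529). The number-3 library was the highest 20 Gy library for H2-Q4 and the lowest for H2-T24.

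For the 6 members that missed the threshold, the groups were also apart. H2-K1 was at 15855.3, 18912.8 and 31043.7 with 20 Gy and at 47508.8, 44299.2 and 52412.4 combined (log2 1.19 ± 0.26, limma adjusted p = 0.0647). H2-Q6 was at 3510.2, 3811.3 and 8864.2 and then 14855.5, 12464.1 and 16604.8 (1.57 ± 0.34, limma adjusted p = 0.0577). H2-T23 was at 2456, 2748.4 and 4698.4 and then 6864.5, 6357.1 and 7515.2 (1.12 ± 0.25, limma adjusted p = 0.0717). In all 3 genes the 20 Gy library numbered 3 was far above the other two, and the combined libraries were closer together.

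H2-D1 was at 18586.8, 22059.7 and 37302.1 with 20 Gy and at 40937.3, 40166.2 and 49549.5 combined (log2 0.8 ± 0.28, limma adjusted p = 0.335). H2-M3 was at 824.5, 757.5 and 679.2 and then 1496.8, 1249.7 and 1298.1 (0.84 ± 0.25, limma adjusted p = 0.207). B2m was at 15411, 18226 and 34917.6 and then 35802.4, 39290.9 and 51861.8 (0.96 ± 0.35, limma adjusted p = 0.371). The spread within 20 Gy was wide for H2-D1 and B2m, whose number-3 library nearly reached the combined range, and small for H2-M3.

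Over both radiation states together, 6 libraries with the fusion protein against 6 without, 7 of 10 genes rose, beside 3.29% of all genes by limma with Benjamini-Hochberg adjustment. In order of size, the log2 changes were 2.15 ± 0.21 for H2-T22 (adjusted p = 0.000161), 2.01 ± 0.3 for H2-T24 (0.00319), 1.44 ± 0.18 for H2-Q7 (0.00103) and 1.29 ± 0.24 for H2-Q6 (0.012). H2-Q4 at 1.16 ± 0.19 (0.00593), the classical gene H2-K1 at 1.05 ± 0.19 (0.00966) and H2-T23 at 1.01 ± 0.18 (0.0101) followed. By limma all 7 kept their call when any 1 of the 12 libraries was left out. B2m at 0.81 ± 0.25 (limma adjusted p = 0.122), H2-D1 at 0.69 ± 0.2 (0.0985) and H2-M3 at 0.61 ± 0.18 (0.0961) did not pass. The comparison reuses the libraries of both single comparisons and is not separate evidence.

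**Figure D2:**
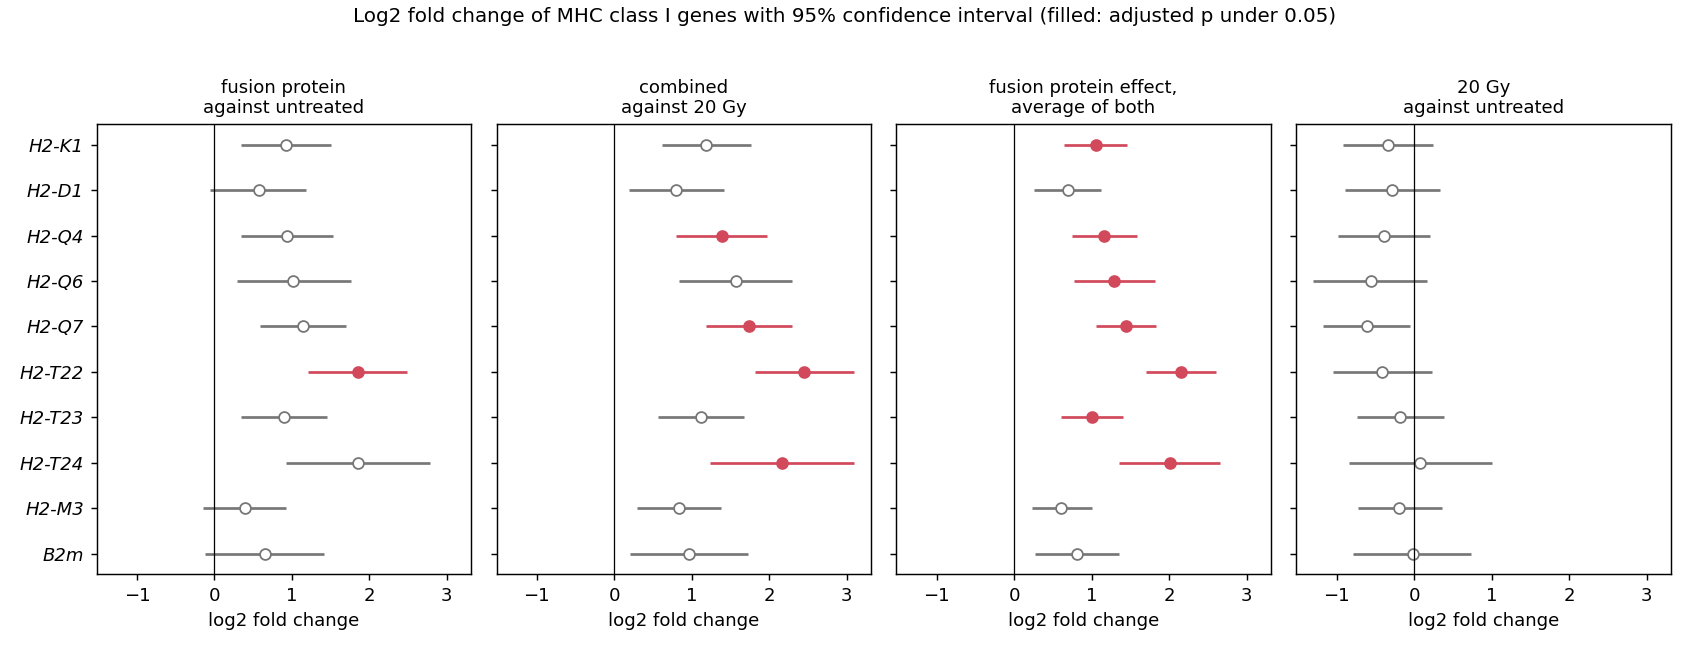
Log2 fold change (log2 of normalized count plus 1) of each class I gene in 4 comparisons, as points with 95% confidence intervals from limma, filled where the adjusted p is under 0.05. H2-T22 and H2-T24 have the highest values with the fusion protein, and the intervals for 20 Gy against untreated cross 0 for every gene but H2-Q7.

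Whether the fusion protein's effect differed between irradiated and unirradiated tumours was asked of the interaction. All 10 interaction estimates were above 0, from 0.23 for H2-T23 to 0.6 for H2-Q7 and H2-T22. None was called by limma, edgeR or DESeq2, beside 0%, 0% and 0.00549% of genes. None had an unadjusted p under 0.05 (0 of 10, beside 1.03% of genes), and limma's adjusted p was 1 for each. The 95% interval for H2-T22 was −0.3 to 1.51 and that for H2-K1 was −0.55 to 1.09, so differences of either sign fit these libraries.

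Radiation alone, 20 Gy against untreated, called none of the 10 genes, beside 0% of all genes in limma. H2-Q7 alone had an unadjusted p under 0.05 (1 of 10, beside 6.74% of genes). With edgeR and DESeq2 0 of 10 were also called, beside 0% and 0.247% of genes. With limma's block it was 0 of 10 beside 0.383%. The groups overlapped for each gene, and the median log2 difference of the members was −0.31 against 0.04 over all genes. H2-Q7 had the lowest value, −0.61 ± 0.25 (95% interval −1.17 to −0.05, limma adjusted p = 0.722), and H2-T24 the highest, 0.08 ± 0.42 (−0.84 to 1.01, limma adjusted p = 0.982). H2-K1 was at −0.34 (interval −0.92 to 0.24) and B2m at −0.02 (−0.79 to 0.74). These widths leave room for a fall or a rise of most members.

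Combined against untreated put every combined library above every untreated one in 10 of 10 genes, against 10.3% of all genes. H2-T22 rose by 2.04 ± 0.29 on the log2 scale (limma adjusted p = 0.00495) and H2-T24 by 2.24 ± 0.42 (0.0245), so 2 of 10 were called, beside 1.4% of all genes. The H2-T22 call held when any one of the 6 libraries was left out. That of H2-T24 was lost (limma adjusted p 0.0624 to 0.126) without untreated library 2 or 3 or any one combined library. With the replicate block 9 of 10 were called, all but H2-D1 (adjusted p = 0.0953), beside 7.73% of all genes. Those gained were H2-K1 (0.0213), H2-Q4 (0.00846), H2-Q6 (0.0224), H2-Q7 (0.00832), H2-T23 (0.00742), H2-M3 (0.0355) and B2m (0.00952).

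Combined against fusion protein asked what radiation added to the protein. None of the 10 genes was called by limma, edgeR or DESeq2 (beside 0% of genes in limma), and none had an unadjusted p under 0.05 (beside 2.92% of genes). The log2 differences ran from −0.07 ± 0.26 for H2-K1 to 0.39 ± 0.42 for H2-T24, with limma's adjusted p = 1 for each. The 95% intervals were −0.65 to 0.51 for H2-K1, −0.45 to 0.83 for H2-T22 and −0.54 to 1.32 for H2-T24, which do not show that the groups were alike.

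The make-up of the heavy chain pool differed with the fusion protein, given here as a description with no test. Per kilobase, H2-D1 was 1.27 to 1.315 times H2-K1 in untreated libraries and 1.329 to 1.369 times with 20 Gy. The ratio was 0.921 to 1.115 with the fusion protein and 0.982 to 1.077 combined, so all 6 libraries with the protein lay below the 6 without. H2-D1 supplied 38.717% ± 1.03 (SD, n = 3) of the summed heavy chain level untreated, 40.34% ± 0.513 with 20 Gy, 31.947% ± 3.041 with the fusion protein and 31.333% ± 1.366 combined. H2-K1 kept to 29.12% to 31.95% in the 12 libraries. H2-T22 made up 1.48% to 1.97% untreated, 1.59% to 1.7% with 20 Gy, 3.12% to 3.77% with the fusion protein and 3.92% to 4.16% combined, again with no overlap between libraries with and without the protein. B2m stood at 0.55 to 1.139 times the summed heavy chains, lowest in fusion protein library 2 and highest in 20 Gy library 3.

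**Figure D3:**
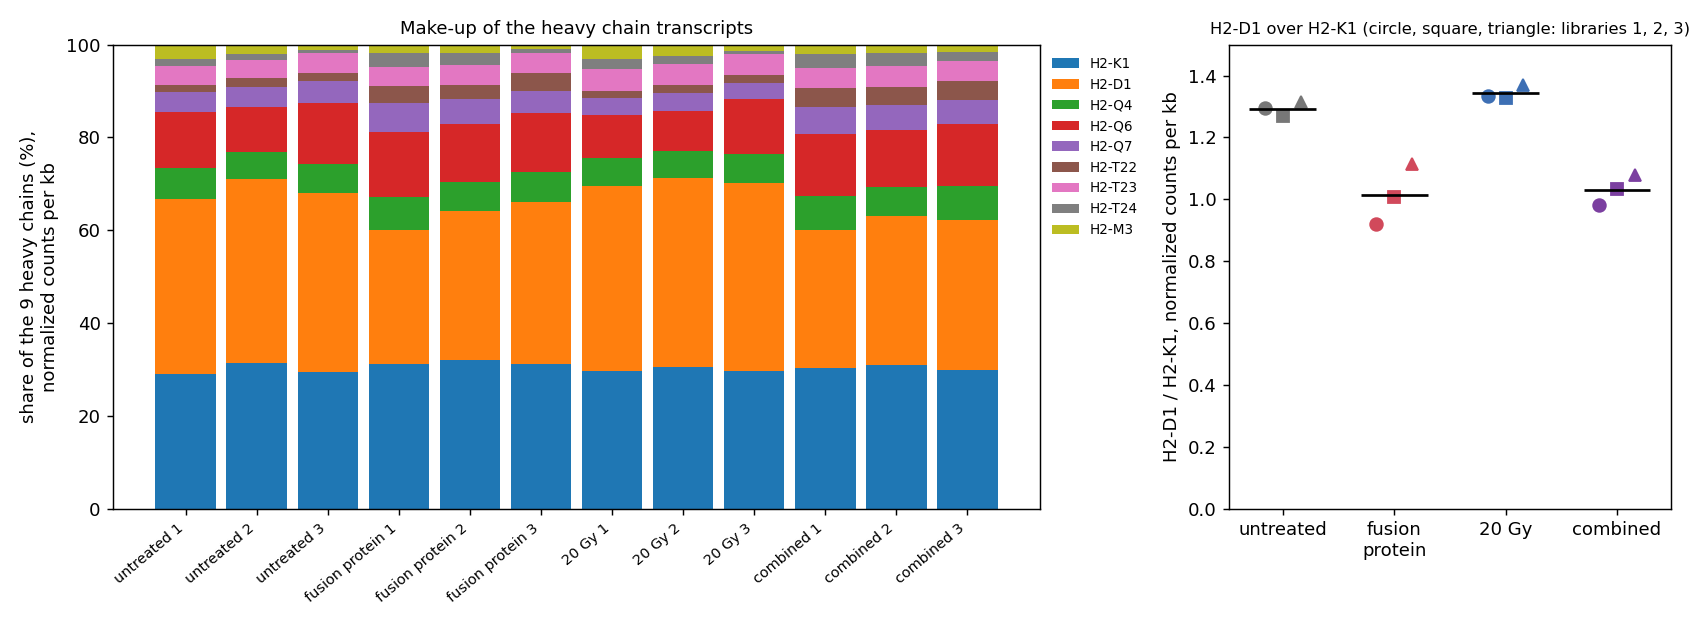
Share of each heavy chain gene in the summed heavy chain level per kilobase as stacked bars for the 12 libraries (left, percent), and the ratio of H2-D1 to H2-K1 per kilobase by group (right, one symbol per library and a line at the mean). The ratio is 1.27 to 1.369 in the 6 libraries without the fusion protein and 0.921 to 1.115 in the 6 with it.

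Genes that prepare peptides for class I had smaller median differences. Of 13 loading and processing genes, 0 rose with the fusion protein and 0 in combined against 20 Gy by limma. Over both radiation states 1 rose, Psmb9, a subunit of the immunoproteasome, by 0.73 ± 0.15 on the log2 scale (limma adjusted p = 0.0241). The list's median over both states was 0.53, below the 1.11 of the class I members. Tap1, a chain of the peptide transporter, was at 3314.4, 3350 and 5854.2 untreated and at 6446.5, 6336.4 and 7110.7 with the fusion protein. Its 0.78 ± 0.21 over both states missed the threshold (limma adjusted p = 0.073), and its 3 treated libraries exceeded the 3 untreated. With the block, Psmb8 (limma adjusted p = 0.0431) and Psmb9 (0.0123) passed in fusion protein against untreated.

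Of 15 regulators of class I promoters, 2 rose with the fusion protein by limma, among them Irf9, a part of the type I interferon signal, by 0.82 ± 0.16 (adjusted p = 0.0441). With the block 4 were called in this comparison. In combined against 20 Gy 4 rose, among them Stat2 by 2.01 ± 0.38 (limma adjusted p = 0.031), Irf9 by 0.79 ± 0.16 (0.0411) and Nlrc5 by 1.22 ± 0.2 (0.013). Nlrc5, the class I transactivator, was at 4043, 4348.4 and 5125.9 normalized counts untreated, and at 10200.1, 8235.8 and 6833.9 with the fusion protein. With 20 Gy it was at 3529.6, 3590.5 and 4210.3, and combined at 10147.6, 7028.8 and 9442.6, so no library with the protein overlapped those without. Its log2 difference from untreated with the protein alone, 0.89 ± 0.2, missed the threshold (limma adjusted p = 0.0862) and passed with the block (0.018). Among regulators whose proteins bind boxes of the class I promoter, none of Rela, Nfkb1, Creb1, Rfx5, Nfya, Nfyb and Nfyc was called by limma in either comparison or over both states. Nfyb was the highest of them over both states at 0.5 ± 0.12 (limma adjusted p = 0.0553) and Nfkb1 the lowest at −0.39 ± 0.19 (0.384). With the block Nfyb passed over both states (limma adjusted p = 0.00391).

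Among 29 other class I and class I-like genes, 25 were found by symbol, and 15 of these had enough reads to test. H2-T10, the near copy of H2-T22, rose by 1.6 with the fusion protein (limma adjusted p = 0.0141) and by 2.03 in combined against 20 Gy (0.0023). It was at 412.6, 419.4 and 379.7 untreated and at 1436.3, 1003.9 and 1286.6 with the fusion protein. Fcgrt, a class I-like receptor that carries antibodies, went the other way, from 615.6, 652.8 and 801.7 to 229.5, 332.3 and 109.9 (log2 −1.75, limma adjusted p = 0.0428). In combined against 20 Gy it was not called (−1.21, limma adjusted p = 0.167).

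Of 14 receptors that bind class I, 0 passed with the fusion protein by limma, with a median log2 difference of 0.69, and 4 passed with the block. Cd8a, the coreceptor of T cells, was at −0.16 and Pirb, an inhibitory receptor of myeloid and B cells, at 0.06. In combined against 20 Gy 2 rose, the Ly49 receptor genes Klra1 by 1.72 (limma adjusted p = 0.0347) and Klra7 by 1.79 (0.0237). Klra7 was at 758.5, 826.1 and 1027.4 with 20 Gy and at 2974.7, 2854.9 and 3162.5 combined. Over both radiation states 4 rose by limma, Klra7 by 1.64 ± 0.23 (adjusted p = 0.00218), Klra1 by 1.48 ± 0.24 (0.00518), Klra3 by 1.35 ± 0.22 (0.00593) and Klra9 by 1.12 ± 0.23 (0.0232). Ly49 genes are typical of NK cells, whose 4 markers (Ncr1, Klrb1c, Klrd1, Prf1) were none at 0. Their summed level was 8828.2 to 9086.3 untreated, 12388.2 to 24566.7 with the fusion protein, 5267.5 to 6655 with 20 Gy and 11353.1 to 13518.8 combined, and 4 of 4 were higher with the protein in both comparisons. Prf1, the gene of perforin, was at 2105, 2883.2 and 3322.8 untreated and at 6622, 6141.9 and 18080 with the fusion protein. Ncr1 was at 3727.8, 3889.1 and 3021.8 untreated and at 8061.5, 3924.4 and 3196.1 with the fusion protein, so these groups overlapped. Those of Klrb1c and Klrd1 overlapped too. Of the 4, Prf1 was called over both states (1.83 ± 0.33, limma adjusted p = 0.0119). Their part in the class I values was not tested.

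MHC class II genes, which show peptides to CD4 T cells, were lower. Of 6 class II genes, 0 were called in either single comparison by limma and 3 fell over both radiation states, with log2 values of −1.14 for H2-Ab1, −1.07 for H2-Eb1 and −1.02 for Cd74 (limma adjusted p = 0.0326, 0.0373 and 0.0428). Conventional dendritic cell markers were lower in 7 of 8 in fusion protein against untreated and in combined against 20 Gy, none at 0. The exception was Irf8, at 8516.6, 11652.4 and 15031.3 untreated and at 11536, 12106.6 and 23766.9 with the fusion protein. In combined against untreated 3 of 8 were higher. The mean log2 level of the 8 was 10.01 to 10.92 untreated, 8.15 to 9.58 with the fusion protein, 10.62 to 11.09 with 20 Gy and 9.19 to 9.93 combined. Cd209a, a lectin of dendritic cells, fell by 4.57 with the fusion protein (limma adjusted p = 0.000653). Over both states 4 of the 8 fell by limma, with log2 values of −4.78 for Cd209a, −2.36 for Xcr1, −1.86 for Flt3 and −0.97 for Zbtb46 (adjusted p = 9.96e-06, 0.00515, 0.00741 and 0.038). The part of this shift in the class I values was not tested.

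Markers of other cell types also differed between the groups, with 0 called by limma in any comparison. The 5 erythroid markers summed to 6.2 to 784.8 untreated, 3 to 397.7 with the fusion protein, 2011.2 to 2896.9 with 20 Gy and 91.2 to 396.4 combined, and 5 of 5 were lower in combined against 20 Gy (median log2 −3.6, 2 called with the block). Macrophage markers summed to 2863.2 to 8143 untreated, 2371.3 to 7807.3 with the fusion protein, 6641.1 to 9683.5 with 20 Gy and 2128.8 to 4088.1 combined, and 6 of 6 were lower in combined against 20 Gy (median −1.07). Neutrophil markers summed to 112.3 to 1526.2 untreated, 324.2 to 3556.9 with the fusion protein, 2705.2 to 4492.3 with 20 Gy and 1554.9 to 5040.5 combined, and 5 of 5 were higher in combined against untreated (median 3.72, 4 called with the block). B cell markers were 5 of 5 higher with the protein in both comparisons (median log2 0.71 and 1.33). Their sums overlapped, from 125.2 to 11234.2 untreated and 284.6 to 16604.4 with the fusion protein. T cell markers were 0 of 7 higher in 20 Gy against untreated (−0.92), combined against untreated (−0.86) and combined against fusion protein (−0.88). Melanocyte markers were 5 of 5 higher in 20 Gy against untreated (1.91), though some were at 0. Some erythroid and neutrophil markers were at 0 in untreated library 2 and fusion protein library 2, as were neutrophil markers in fusion protein library 3. Their part in the class I values was not tested.

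Type I interferon response genes had larger differences than the class I genes. Of 12, 10 rose with the fusion protein, 10 in combined against 20 Gy, 12 in combined against untreated and 0 with 20 Gy alone by limma. With the fusion protein Oas3, a sensor of double-stranded RNA, rose by 3.34, Ifit3 by 3.83 and Usp18, which dampens the type I interferon receptor, by 3.3 (limma adjusted p = 0.000379, 0.000998 and 0.00108). Their median log2 differences were 3.32 and 3.6 in the first pair, against 0.93 and 1.29 for class I. Of 9 interferon gamma response genes, Gbp4 and Irgm2, both interferon-induced GTPases, rose with the fusion protein, by 1.37 and 1.7 (limma adjusted p = 0.0109 and 0.0191). The mean log2 level of this second list was 8.72 to 10.33 untreated, 10.31 to 10.6 with the fusion protein, 8.56 to 10.52 with 20 Gy and 10.85 to 11.44 combined.

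The members did not vary alike. Over the 12 libraries, which share treatments and library features, the Pearson r of log2 levels was 0.991 between H2-Q4 and H2-Q6, 0.987 between H2-K1 and H2-T23, and 0.935 between H2-T24 and H2-M3. It was 0.287 between H2-M3 and B2m and 0.429 between H2-T24 and B2m. Within the untreated and 20 Gy groups the 8 other genes were highest in the number-3 library, whereas H2-T24 and H2-M3 were lowest there in the untreated, fusion protein and 20 Gy groups. The number-3 libraries are also those with the low B cell and high melanocyte markers given above, and the part of those cells in the differing levels was not tested.

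**Figure D4:**
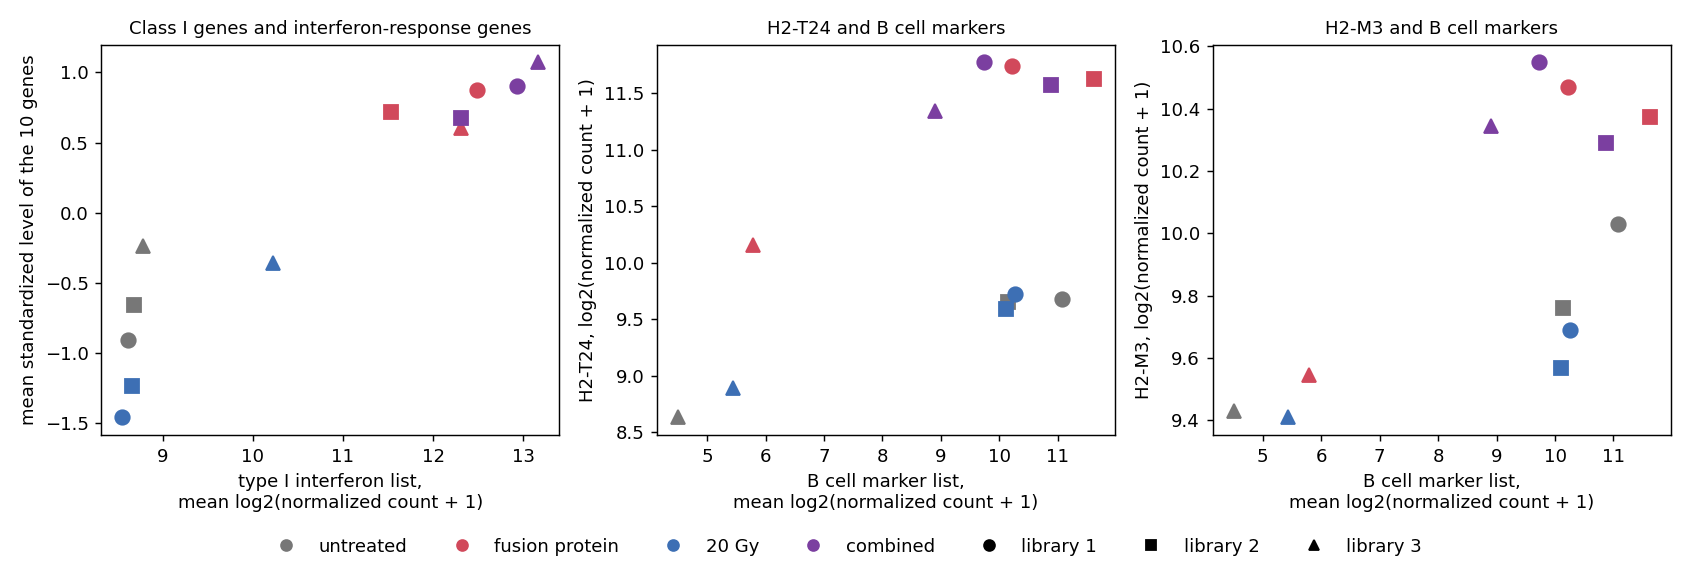
Each symbol is one of the 12 libraries, coloured by group and shaped by library number: the mean standardized level of the 10 class I genes against the mean log2 level of the type I interferon list (left), and the log2 level of H2-T24 (middle) and H2-M3 (right) against the mean log2 level of the B cell markers. On the left the 6 libraries with the fusion protein lie at 11.53 to 13.17 on the interferon axis and the other 6 at 8.55 to 10.22. In the other panels the number-3 libraries of untreated, fusion protein and 20 Gy are each the lowest of their own group on both axes.

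Outside the family, the genes most like the mean of the members' standardized levels over the 12 libraries, among tested genes with a mean of at least 50, included Tgtp2 (r = 0.988), Mov10 (0.986), Sct (0.985), Nmi (0.984), Gbp7 (0.977), Gbp6 (0.976) and Rnf114 (0.975). For single members, the gene with the highest r was Mov10 for H2-T22 (0.996), Gbp9 for H2-T24 (0.987), Gbp3 for B2m (0.984) and Lrch3 for H2-M3 (0.943). Ogfr was nearest for both H2-D1 (0.978) and H2-T23 (0.988). These values describe libraries that fall into clusters with and without the fusion protein.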

How the data were processed

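RNA was sequenced from sorted CD45+ CD11c+ tumour cells in 12 libraries, 3 in each of 4 groups taken from the sample labels. Per the submitters' processing notes, the tools used were FastQC, Trimmomatic, STAR, featureCounts and DESeq2 with build mm10; their versions, and whether counting used strand, are not given. The deposited signal values are read counts per gene that the authors divided by a DESeq2 size factor per library. Multiplied by the recovered factors, 100% of values were whole reads within 0.001. H2-T22, H2-T23 and H2-T24 overlap A930015D03Rik, H2-Q4 overlaps Gm11131 and B2m overlaps Patl2 on the opposite strand, so their reads may mix.

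Symbols were matched through GENCODE vM21 for 55141 of 55401 identifiers. Genes with a value of at least 10 in at least 3 libraries, 18274 in all, were tested with limma 3.58.1 in R 4.3.3 on log2 of the value plus 1, with a variance trend and all 12 libraries in 4 groups. All tests are two-sided, with Benjamini-Hochberg adjustment over the 18274 genes and an adjusted p threshold of 0.05. The ± after a log2 value is its SE. Scripts were tested on simulated data. Named are all 10 members and, from the lists, genes taken from those called, those of smallest p first and at most 4 in a comparison, or genes whose role is explained; 1 called gene is not reported here. The members and lists were chosen with earlier results of these data known. edgeR 4.0.16 and DESeq2 1.42.0 were run on the recovered reads as alternatives, with other pseudocounts, filters and scalings, single libraries left out and the replicate number as a block.

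The labels do not say what the replicate number marks. Residuals of same-numbered libraries correlated at 0.473 to 0.621 between untreated and fusion protein, 0.156 to 0.496 for 20 Gy, 0.334 to 0.389 for combined, and 0.41 to 0.484 between fusion protein and combined, so for these comparisons the block is given beside a result where it changes a call, which it did for no member in 20 Gy against untreated or combined against fusion protein. Between 20 Gy and combined the range was 0.01 to 0.505.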

Additional observations from a re-analysis of the deposited data

How the results depend on the processing

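The 7 members that rose over both radiation states were called again with every alternative run, and 0 were called for 20 Gy against untreated, combined against fusion protein and the interaction in all of them. The number called in fusion protein against untreated, 1, became 7 with the replicate block in limma or edgeR, 4 with DESeq2, 0 with only the compared libraries, 5 without replicate 3 in every group, and 0 to 2 with single libraries left out (0 without untreated library 2 or fusion protein library 1, 2 without 20 Gy library 3). In combined against 20 Gy the 4 became 10 with the block in limma or edgeR, where same-numbered libraries were not shown to pair, 7 with DESeq2, 2 with edgeR, 2 with the level of those odorant-type receptor genes as a covariate and 7 without replicate 3 in every group. Leaving out single libraries gave 2 to 6, with H2-Q7 and H2-T22 in each. In combined against untreated the 2 became 9 with the block in limma or edgeR, 5 with DESeq2, 1 with the receptor covariate, 5 without replicate 3 in every group and 1 to 5 with single libraries left out. Over both radiation states the block called 10, with B2m (limma adjusted p = 0.00194), H2-D1 (0.00439) and H2-M3 (0.00634) gained, edgeR 7 and DESeq2 9. There the block also called 8 of 13 loading and processing genes in place of 1, Tap1 among them (0.00258), 6 of 6 class II genes in place of 3 and 9 of 14 class I receptors in place of 4. It called 7 of 15 promoter regulators in place of 4, Nfyb among them (limma adjusted p = 0.00391). Shares of all genes called with limma's block, edgeR's block and DESeq2 were 3.29%, 2.86% and 2.82% in fusion protein against untreated. In combined against 20 Gy they were 4.56%, 4.19% and 3.35%, with 0.832% for edgeR without the block. In combined against untreated they were 7.73%, 6.64% and 4.15%. Over both radiation states they were 10.9%, 9.98% and 7.98%, with 3.22% for edgeR without the block. The edgeR fit with the block was chosen after seeing the data. The cause was not tested. Fits that leave libraries out have fewer samples. For those fits, the fit of only the compared libraries and the receptor covariate, shares of all genes called are not given here. Their counts of members therefore cannot be set against all genes.

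Values that changed sign were of genes not called in those comparisons. In 20 Gy against untreated B2m was 0.01 with edgeR and 0.02 with DESeq2. With the receptor covariate it was 0.36, H2-K1 0.01, H2-D1 0.09, H2-T23 0.13 and H2-T24 −0.12. With that covariate in combined against fusion protein H2-K1 was 0.07, H2-D1 0.11, H2-Q6 0.15 and H2-Q7 0.1. As a sum with H2-Q4, H2-Q6 and H2-Q7 came to 0 there. Without replicate 3 in every group, H2-T24 was −0.01 in 20 Gy against untreated, −0.01 in combined against fusion protein and 0 in the interaction. In combined against fusion protein H2-Q4 was then −0.08, H2-T23 −0.01 and H2-M3 0. With single libraries left out, the values of genes that changed sign ran as follows. In 20 Gy against untreated they were −0.47 to 0.04 for H2-T23, −0.26 to 0.34 for H2-T24 and −0.38 to 0.23 for B2m. In combined against fusion protein they were −0.14 to 0.03 for H2-D1, −0.07 to 0.21 for H2-Q4, −0.12 to 0.09 for H2-Q6, −0.1 to 0.1 for H2-Q7, −0.02 to 0.1 for H2-T23, −0.12 to 0.67 for H2-T24 and −0.03 to 0.43 for H2-M3. In the interaction they were 0 to 0.51 for H2-T23 and −0.2 to 0.65 for H2-T24. The lowest member value in any library was 395.2 normalized counts.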
